A study of Mus musculus with 16 samples.

Results

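Transcript levels of 10 genes of the Notch pathway were examined in cells labelled as tumour-associated macrophages (TAMs) and sorted from the mouse peritoneal cavity. The genes were the receptors Notch1, Notch2 and Notch4, the ligands Jag1 and Dll1, the receptor-modifying enzyme Lfng, the transcription factor Rbpj, and the target genes Hes1, Nrarp and Dtx1. They were represented by every probe set annotated to exactly 1 of these symbols, which gave 21 of the 45037 probe sets that are not array controls. A probe set is a group of short oligonucleotides on the array that together read 1 transcript. Each of the 10 genes had at least 1 probe set, and none was removed by a filter on low signal.

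The mice were female C57BL/6N animals of 8 to 12 weeks, of a control or an RbpjiΔEC genotype, and carried ID8-luciferase cells, a mouse ovarian cancer line. Tamoxifen was given once by gavage, at 1 mg in 100 µl. After 3 weeks, the tumour cells were injected into the peritoneal cavity and grew for 4 weeks before lavage. Cells positive for CD45, CD11b and F4/80 were divided by the chemokine receptor CCR2, and each of the 4 combinations of sort label and genotype has 4 arrays. The series title speaks of endothelial Rbpj. The labels name neither the Cre driver nor the control allele, and do not say whether arrays come from separate animals, so each p-value is set against variation among arrays that could be technical in origin.

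Notch receptors are cell surface proteins activated by Jagged and Delta-like ligands on a neighbouring cell. Binding leads to cleavage of the receptor by ADAM proteases and then by gamma-secretase. The freed intracellular domain enters the nucleus, binds the DNA-binding protein RBPJ together with Mastermind co-activators, and switches on genes of the Hes and Hey families, Nrarp and Dtx1. Without the receptor fragment, RBPJ recruits co-repressors to the same genes. In the immune system Notch2 is required for marginal zone B cells, and Notch signals take part in the development of several macrophage and dendritic cell types.

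Because RBPJ reads a short DNA motif, the regions before annotated gene starts were searched for GTGGGAA and, on the other strand, TTCCCAC. RefSeq windows (GRCm38.p6) were present for 9 of the 10 genes and covered the 250 bases before annotated starts. Some of these starts lie inside the annotated span of the gene. Hes1 had no window, so it was not searched. Among the 9 genes, Lfng alone held the motif in a window, against 6.18% of the 27025 genes with a window. The motif began 109 bases before the start of Lfng. It is shown here within a stretch of 30 bases, chr5:140607220-140607249 on the plus strand, 5′ to 3′ with the motif in capitals.
Lfng site: tccgtatcccacGTGGGAAggagagatctc

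Jag1 and Dtx1, the genes with the largest differences between the sort labels in opposite directions (below), held no copy in their windows. These are shown for comparison, at chr2:137116521-137116770 and chr5:120711670-120711919, both on the minus strand. The Dtx1 window precedes a start inside the annotated gene, chr5:120680203-120711867, so part of that window lies within the gene.
Jag1 upstream: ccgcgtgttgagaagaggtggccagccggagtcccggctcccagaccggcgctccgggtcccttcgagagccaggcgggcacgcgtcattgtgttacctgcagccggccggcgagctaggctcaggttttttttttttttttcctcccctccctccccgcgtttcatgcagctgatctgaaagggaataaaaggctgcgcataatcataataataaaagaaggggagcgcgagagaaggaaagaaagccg
Dtx1 upstream: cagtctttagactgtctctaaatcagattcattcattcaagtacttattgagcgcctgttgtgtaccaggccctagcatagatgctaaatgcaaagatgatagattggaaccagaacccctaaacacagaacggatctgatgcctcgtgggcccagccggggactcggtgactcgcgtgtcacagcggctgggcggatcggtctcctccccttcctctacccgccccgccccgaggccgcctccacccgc
The absence of a match says only that these letters are not in the window. The GC content was 57.2% for Jag1 and 56.4% for Dtx1, with a median of 64% over the 11 windows of the 9 genes and 52.4% over all 32851 windows. Of the 58 other Notch pathway genes with a window, 7 held the motif.

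The deposited values are linear probe set intensities. They were taken to log2 and quantile normalized over the 16 arrays, and all levels below are on that scale, on which 1 unit is a doubling. The columns of the arrays labelled CCR2+ and CCR2- differed in kind. In the CCR2+ columns the array means lay between 821 and 827, and 2.58% to 2.91% of the values became whole when multiplied by a number of at most 22 (tolerance 0.001). In the CCR2- columns the means ran from 481 to 762 and all values did so. Sort label and kind of column therefore cannot be told apart in any comparison between the labels.

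The cell type markers also set the labels apart. The F4/80 gene Adgre1 was 4.04 higher in the CCR2+ arrays of control mice, and all 5 markers of large peritoneal macrophages were higher, with a median difference of 4.39. All 12 B cell markers measured were lower, with a median difference of -5.19, and their summed intensity was 1604 to 1896 in the CCR2+ control arrays against 58862 to 61079 in the CCR2- control arrays. Of the 6 dendritic cell markers, 5 were lower. Ccr2 itself ran against the sort label, at -1.99 in control mice (limma adjusted p = 0.0192) and -1.26 in RbpjiΔEC mice (limma adjusted p = 0.139). The groups are therefore called the arrays labelled CCR2+ and CCR2-. Correlations between arrays were 0.969 to 0.991 within a group and 0.837 to 0.871 between labels. In such bulk samples fewer cells of a type and less RNA per cell cannot be told apart.

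The comparison of the sort labels asks how the Notch genes differ between the 2 sorted populations. In control mice the arrays labelled CCR2+ had higher Jag1, Notch1, Rbpj and Lfng, and lower Dtx1. Of the 21 probe sets, 11 were higher and 2 lower at a limma adjusted p under 0.05, against 40.2% of all probe sets called in that comparison (8518 higher and 9575 lower). In RbpjiΔEC mice 10 were higher and 2 lower, against 37.8% of all probe sets (7867 higher and 9160 lower). The median difference over the 21 was 0.51 in control and 0.35 in RbpjiΔEC mice, and the median over all probe sets was -0.03 in both. Genes with several probe sets count more than once among the 21. With each of the 10 genes counted once, at its highest-mean probe set, the median was 0.29 in control and 0.18 in RbpjiΔEC mice. At the probe set with the highest mean of each gene, 5 of the 10 genes passed in each genotype, near the share of all genes that passed (40.7% in control and 38.9% in RbpjiΔEC mice).

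**Figure D1:**
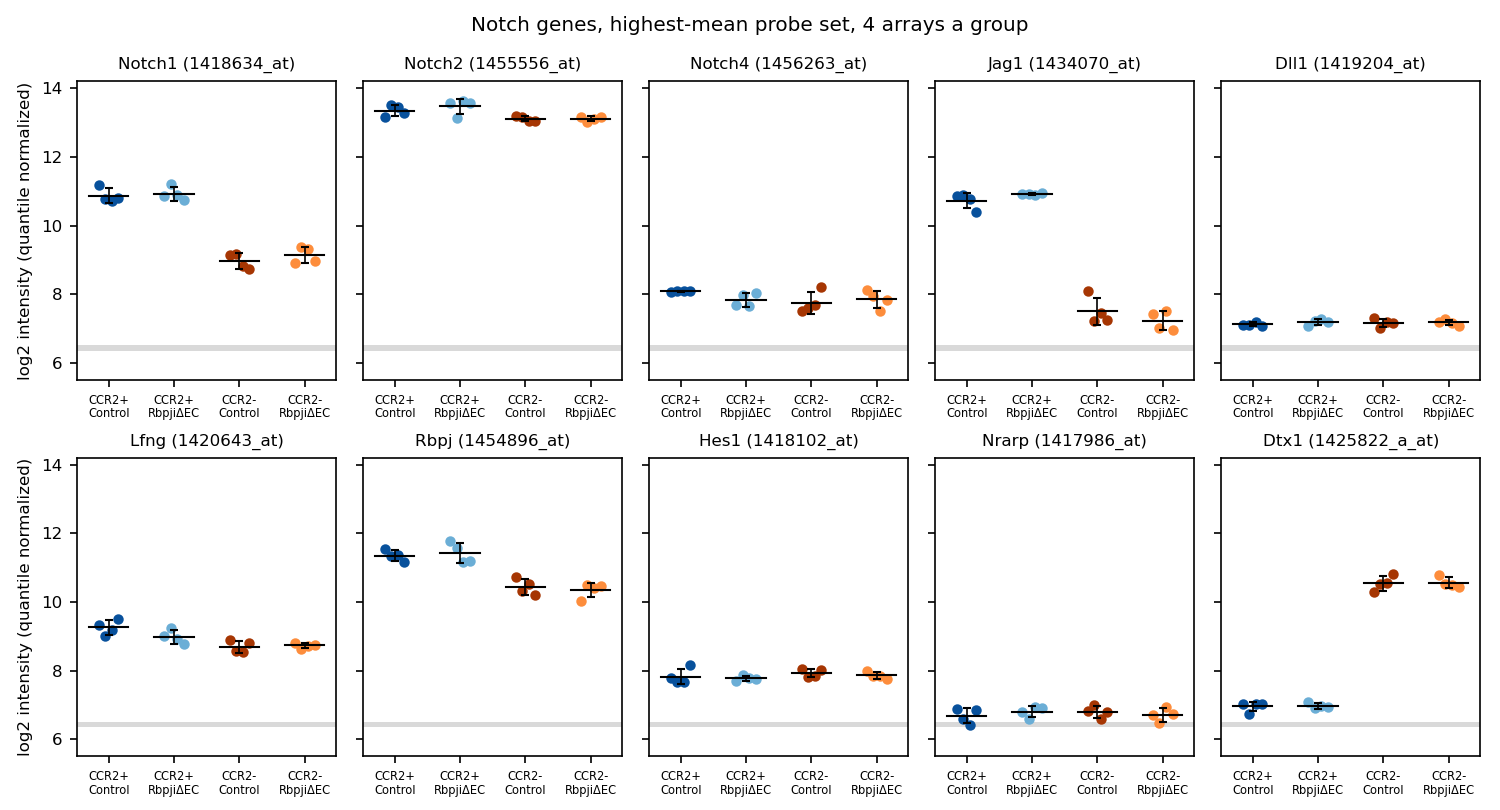
Level of each of the 10 Notch genes at its highest-mean probe set, as quantile-normalized log2 intensity (vertical axis), in each of the 16 arrays by group. Bars are the mean and SD over 4 arrays. The grey band, 6.35 to 6.51, is the range over the 16 arrays of the mean of the 3 bacterial trp control probe sets. Single trp probe sets read 6.03 to 6.72. Jag1 and Notch1 lie higher and Dtx1 lower in the arrays labelled CCR2+, without overlap, in both genotypes.

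Among the receptors, Notch1 was higher in the arrays labelled CCR2+. Its probe set 1418634_at read 11.19, 10.78, 10.72 and 10.80 in the CCR2+ control arrays and 9.15, 9.16, 8.84 and 8.73 in the CCR2- control arrays. The RbpjiΔEC arrays read 10.87, 11.20, 10.88 and 10.74 with the CCR2+ label and 8.92, 9.36, 9.32 and 8.97 with the CCR2- label. Every CCR2+ array lay above every CCR2- array. The difference was 1.91 ± 0.14 (SE) in control mice, a 3.75-fold higher intensity (limma adjusted p = 1.7e-08), and 1.78 ± 0.14 in RbpjiΔEC mice (limma adjusted p = 3.8e-08). The second probe set, 1418633_at, gave 1.29 and 1.43, again without overlap.

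Notch2, the receptor on which marginal zone B cells depend, differed by less. Its probe set 1455556_at read 13.17, 13.51, 13.46 and 13.27 in the CCR2+ control arrays and 13.20, 13.16, 13.06 and 13.06 in the CCR2- control arrays. With the RbpjiΔEC genotype it read 13.57, 13.14, 13.62 and 13.56 against 13.15, 13.03, 13.11 and 13.18. The groups overlapped in both genotypes. The difference was 0.23 ± 0.11 in control mice (limma adjusted p = 0.0946, not past the threshold) and 0.35 ± 0.11 in RbpjiΔEC mice (limma adjusted p = 0.0143). The control difference of 1455556_at passed when CCR2+ Control replicate 1 or CCR2+ RbpjiΔEC replicate 2 was left out (limma adjusted p = 0.0492 and 0.0341). The other probe set, 1451889_at, showed the opposite order of calls, with 0.51 ± 0.18 in control mice (limma adjusted p = 0.0358) and 0.12 ± 0.18 in RbpjiΔEC mice (limma adjusted p = 0.668). The control call of 1451889_at was lost when CCR2+ Control replicate 1, 3 or 4 or CCR2- Control replicate 1, 2 or 4 was left out (limma adjusted p = 0.0547 to 0.122), and with array weights. Both probe sets therefore passed in 1 genotype only, and neither interaction of label and genotype passed (limma adjusted p = 0.998 for each).

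Within the 8 arrays labelled CCR2+ the 2 Notch2 probe sets ran against each other. The CCR2+ Control arrays read 11.72, 10.88, 11.51 and 11.31 at 1451889_at, in the order in which 1455556_at is given above, and the CCR2+ RbpjiΔEC arrays read 11.23, 11.74, 10.88 and 10.93. The 2 arrays lowest at 1455556_at, CCR2+ RbpjiΔEC 2 and CCR2+ Control 1, were the 2 highest at 1451889_at. Pearson's r was -0.85 (exact permutation p = 0.0143, n = 8) and Spearman's rho -0.88 (exact permutation p = 0.00724), adjusted over 28 pairs of probe sets to 0.0803 and 0.0676. The relation was -0.71 within the 4 control arrays and -0.94 within the 4 RbpjiΔEC arrays, and -0.57 over 6 arrays without the 2 farthest from the median. Notch2 1455556_at also rose with the 3′ minus 5′ signal of the actin array control, a measure of RNA quality, in these arrays (r = 0.86, exact permutation p = 0.0105, adjusted p = 0.192 over 42 relations, n = 8) and in the arrays labelled CCR2- (r = 0.71), while 1451889_at gave -0.57 and -0.44. The part of RNA quality in these values was not tested. By contrast, the 2 Lfng probe sets rose and fell together in the same arrays (r = 0.96, exact permutation p = 7.4e-05, adjusted p = 0.00104, n = 8), with r = 0.52 in the arrays labelled CCR2-. Rbpj 1448957_at and 1454896_at also ran together in the arrays labelled CCR2+ (r = 0.98, exact permutation adjusted p = 0.00104), with 0.57 in those labelled CCR2-. The 2 Notch1 probe sets did so in the arrays labelled CCR2- (r = 0.89, exact permutation adjusted p = 0.0394), with -0.07 in those labelled CCR2+.

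Notch4, a receptor best known from endothelial cells, had 3 probe sets. At 1449146_at the CCR2+ control arrays read 7.45, 7.91, 7.32 and 7.66, and the CCR2- control arrays 6.59, 6.64, 6.55 and 7.03. These groups did not overlap, and the difference was 0.88 ± 0.20 (limma adjusted p = 0.00185). In RbpjiΔEC mice the same probe set gave 0.43 ± 0.20 (limma adjusted p = 0.106), with overlapping groups. The CCR2- group means of 1449146_at, 6.70 in control and 6.75 in RbpjiΔEC mice, lay close to the trp control. Its sizes, here and below, are therefore not read as such. The probe set with the highest mean, 1456263_at, gave 0.34 and -0.01, with neither past the threshold. These probe sets thus disagreed in their calls for Notch4 in control mice. The third, 1436901_at, read 5.98 to 6.29 in the arrays labelled CCR2- and 5.97 to 6.15 in those labelled CCR2+, below the trp control band of 6.35 to 6.51, and is not read as a measure of Notch4. Its RbpjiΔEC difference was not called, but under median centring it was, at -0.45 (limma adjusted p = 0.0137). Single arrays also decided some of these calls: 1456263_at passed in control mice without CCR2- Control replicate 4 (0.49, limma adjusted p = 0.0064), and 1449146_at passed in RbpjiΔEC mice without CCR2+ RbpjiΔEC replicate 1 (0.57, limma adjusted p = 0.0332). Of 11 endothelial markers, Pecam1 alone passed in control mice and was lower in the CCR2+ arrays (-4.05). Cdh5 (VE-cadherin) had group means of 6.47 to 6.53, close to the trp control, and the summed endothelial list was 1556 to 1642 in the CCR2+ control arrays against 4149 to 4520 in the CCR2- control arrays. Apart from Pecam1, which leukocytes also express, the endothelial markers differed by -0.31 to 0.09 in control mice and none passed, with a median over the 11 of -0.06.

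**Figure D2:**
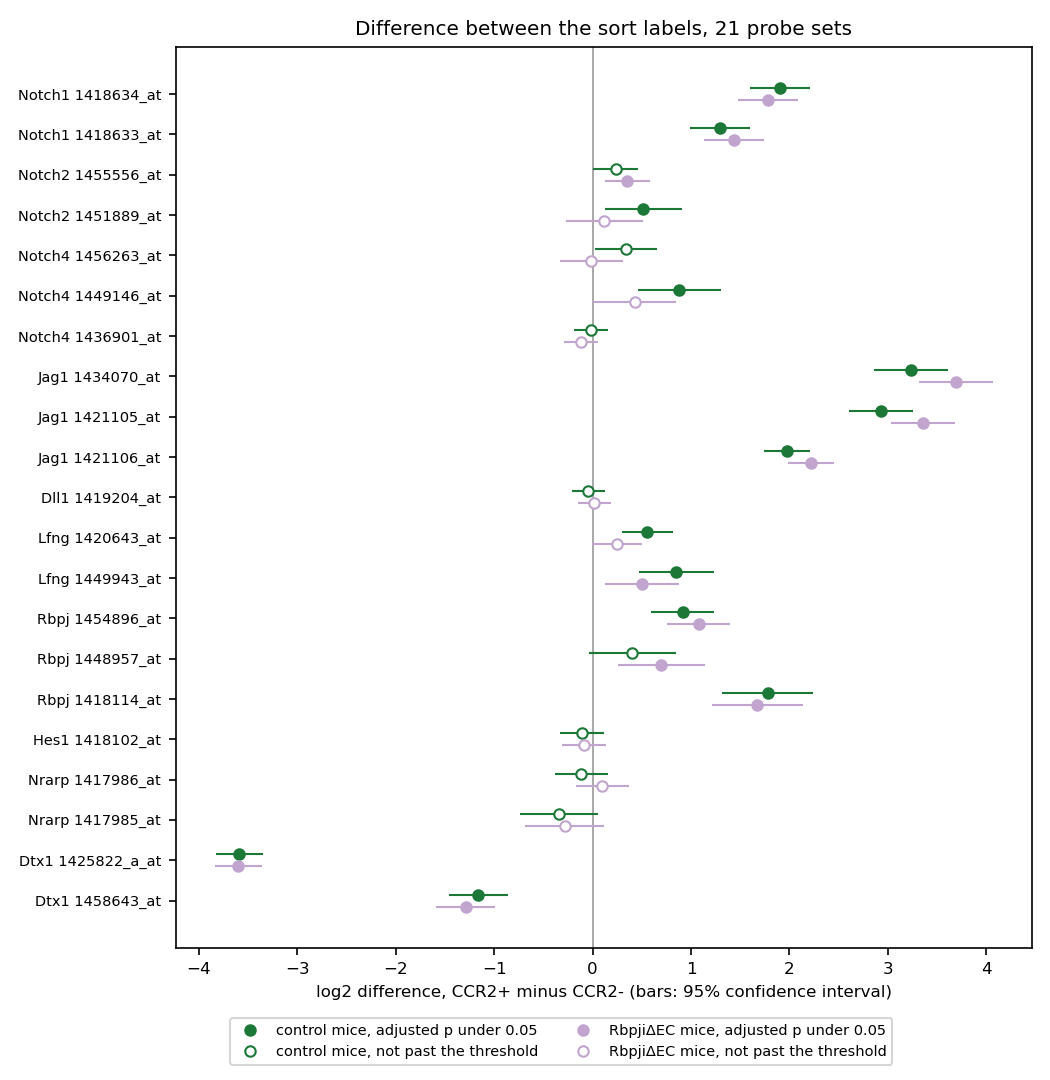
Difference between the sort labels (CCR2+ minus CCR2-, log2, horizontal axis) for each of the 21 probe sets, in control and in RbpjiΔEC mice. Bars are 95% confidence intervals from limma and filled points passed the threshold. The Jag1 probe sets reach 3.23 and 3.70 and the Dtx1 probe set 1425822_a_at lies at -3.59 and -3.60. Dtx1 1458643_at, Notch4 1436901_at and, by its group means, Nrarp 1417985_at read in or below the trp control band in at least 1 label, so their plotted sizes are not read as such. Notch4 1449146_at, with CCR2- group means of 6.70 and 6.75 close to that band, is treated likewise. The CCR2+ group means of Dtx1 1425822_a_at, 6.96 and 6.97, also lie near that band.

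Of the ligands, Jag1 had the largest difference among the 10 genes toward the CCR2+ label. Jagged1 is a transmembrane ligand that activates Notch on adjacent cells. Probe set 1434070_at read 10.86, 10.90, 10.76 and 10.40 in the CCR2+ control arrays and 8.09, 7.23, 7.44 and 7.24 in the CCR2- control arrays. In RbpjiΔEC mice it read 10.93, 10.92, 10.88 and 10.96 with the CCR2+ label and 7.43, 7.01, 7.50 and 6.96 with the CCR2- label. The lowest CCR2+ array lay more than 2 units above the highest CCR2- array. The difference was 3.23 ± 0.18 in control mice, a 9.40-fold higher intensity (limma adjusted p = 2.6e-10), and 3.70 ± 0.18 in RbpjiΔEC mice, 13.0-fold (limma adjusted p = 4.8e-11). All 3 Jag1 probe sets passed in both genotypes, the others with 2.93 and 1.98 in control mice and 3.36 and 2.22 in RbpjiΔEC mice.

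Dll1, the Delta-like ligand that drives marginal zone B cell formation from stromal cells, gave no detectable difference. Its single probe set lay between 7.01 and 7.31 in all 16 arrays, with differences of -0.04 (95% interval -0.21 to 0.12) and 0.02 (-0.15 to 0.18).

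Lfng, lunatic fringe, is a glycosyltransferase that adds sugar to Notch receptors and shifts their response from Jagged toward Delta-like ligands. Probe set 1420643_at read 9.33, 9.01, 9.20 and 9.50 in the CCR2+ control arrays and 8.89, 8.57, 8.54 and 8.81 in the CCR2- control arrays, without overlap. The difference was 0.56 ± 0.12 (limma adjusted p = 0.0013). In RbpjiΔEC mice it was 0.25 ± 0.12 (limma adjusted p = 0.116), with readings of 9.0, 9.25, 8.92 and 8.78 against 8.82, 8.64, 8.73 and 8.75, which overlapped. Probe set 1449943_at passed in both genotypes, with 0.85 ± 0.18 (limma adjusted p = 0.00104) and 0.50 ± 0.18 (limma adjusted p = 0.0354). The RbpjiΔEC call of 1449943_at was lost without CCR2+ RbpjiΔEC replicate 2 (adjusted p = 0.118), without CCR2+ RbpjiΔEC replicate 1 (0.0586), and without CCR2- RbpjiΔEC replicates 2 (0.110) or 4 (0.0833).

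Rbpj, the gene named in the genotype, was higher in the arrays labelled CCR2+. Probe set 1454896_at read 11.55, 11.33, 11.37 and 11.17 in the CCR2+ control arrays and 10.72, 10.32, 10.54 and 10.20 in the CCR2- control arrays. In RbpjiΔEC mice it read 11.77, 11.57, 11.17 and 11.19 against 10.03, 10.49, 10.40 and 10.47. The labels did not overlap in either genotype. The difference was 0.92 ± 0.15 in control and 1.08 ± 0.15 in RbpjiΔEC mice (limma adjusted p = 0.000126 and 2.6e-05). Probe set 1418114_at gave 1.78 and 1.68, both called. At the third, 1448957_at, the groups overlapped in control mice (0.40 ± 0.21, limma adjusted p = 0.14), while RbpjiΔEC mice gave 0.70 ± 0.21 (limma adjusted p = 0.0134). The 3 probe sets therefore ranged from 0.40 to 1.78 in control mice.

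The 3 target genes did not move together. Dtx1, which encodes the Notch-binding ubiquitin ligase Deltex1, had the largest difference toward the CCR2- label. Probe set 1425822_a_at read 7.02, 6.74, 7.04 and 7.03 in the CCR2+ control arrays and 10.29, 10.52, 10.57 and 10.82 in the CCR2- control arrays. With the RbpjiΔEC genotype it read 7.08, 6.90, 6.96 and 6.93 against 10.80, 10.54, 10.50 and 10.44. The 2 labels were separated by more than 3 units. The difference was -3.59 ± 0.11 in control mice, a 12.1-fold lower intensity (limma adjusted p = 2.4e-13), and -3.60 ± 0.11 in RbpjiΔEC mice (limma adjusted p = 2.3e-13). The CCR2+ readings of 6.74 to 7.08 lay little above single trp control readings, which reached 6.72. How far background limits the fold was not tested. The second probe set, 1458643_at, was also called lower in both genotypes, but its CCR2+ readings of 6.01 to 6.49 lay at or below the top of the trp control band (6.35 to 6.51), so no size is given for it. B cell marker genes differed in the same direction, with all 12 lower, and their part in the Dtx1 difference was not tested.

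Hes1, a transcriptional repressor and the most widely used readout of Notch activity, gave no detectable difference. It read 7.78, 7.68, 7.68 and 8.17 in the CCR2+ control arrays and 8.06, 7.82, 7.85 and 8.01 in the CCR2- control arrays. The RbpjiΔEC arrays read 7.70, 7.87, 7.79 and 7.77 against 8.00, 7.86, 7.85 and 7.75. All groups overlapped, and the differences were -0.11 (95% interval -0.33 to 0.12) and -0.09 (-0.31 to 0.14). Nrarp, a target that feeds back to limit Notch signalling, had differences of -0.11 and 0.10 at 1417986_at and of -0.34 and -0.28 at 1417985_at, none past the threshold. At 1417986_at the group means of 6.69 to 6.81 lay close to the trp control. The CCR2+ group means of 1417985_at, 6.41 in control and 6.29 in RbpjiΔEC mice, lay in or below the trp control band (6.35 to 6.51). The sizes at 1417985_at, here and below, are therefore not read as such. Under median centring in place of quantile normalization 1417985_at passed in both genotypes, at -0.51 in each (limma adjusted p = 0.0404 and 0.0405), and it passed in control mice without CCR2+ Control replicate 4 (-0.50, limma adjusted p = 0.0369).

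Calls in both genotypes were counted next. Of the 21 probe sets, 10 passed with the same sign in each genotype, 3 in control mice alone (1 each of Lfng, Notch4 and Notch2) and 2 in RbpjiΔEC mice alone (1 each of Rbpj and Notch2), and none was called in opposite directions. Over all probe sets 31.8% were called with the same sign in each genotype. These counts do not show that the labels differ less or more in either genotype. The interaction of label and genotype was called for 0 of the 21 probe sets by limma, against 0% of all probe sets. At an unadjusted p under 0.05 there were 0 of 21, and 1544 of the 45037. The 3 Jag1 probe sets gave interactions of 0.46, 0.43 and 0.24 and the 2 Lfng probe sets -0.31 and -0.35, each with a 95% interval that included 0.

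Among 76 further genes of the pathway, 70 were measured, and their calls ran in both directions. At the highest-mean probe set, 18 were higher and 18 lower in the CCR2+ control arrays, against 19.4% of all genes higher and 21.3% lower. In RbpjiΔEC mice 15 were higher and 24 lower, against 18.0% and 20.9%. Under median centring the control split became 24 higher and 8 lower and the RbpjiΔEC split 17 and 14. All genes moved the same way under that scaling, to 24.3% higher and 14.5% lower in control mice and 19.6% and 16.1% in RbpjiΔEC mice. With quantile normalization the median difference over the 70 genes was 0.04 in control and -0.03 in RbpjiΔEC mice. With that normalization both genotypes called 29 of the 70 in the same direction and none in opposite directions, against 32.9% of all genes called in the same direction.

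The same shares over all genes (19.4% higher and 21.3% lower in control mice, 18.0% and 20.9% in RbpjiΔEC mice) stand behind the counts of each class of the pathway, and the classes are small. Of 8 genes of receptor cleavage, 5 were higher and 1 lower in control mice, and 4 and 1 in RbpjiΔEC mice. Aph1b, a subunit of gamma-secretase, rose by 1.75 ± 0.13 (limma adjusted p = 1.9e-08), and the ADAM protease gene Adam10 by 0.50 ± 0.10 (limma adjusted p = 0.000863). Under median centring the Adam10 difference was 1.04 in control and 0.80 in RbpjiΔEC mice. Other Adam10 probe sets disagreed in sign, with 0.87, 0.25 and -0.26 in control mice and 0.81, 0.32 and -0.17 in RbpjiΔEC mice. Of 15 genes of endocytosis and ubiquitin ligation, 8 were higher and 3 lower in control mice, and 6 and 3 in RbpjiΔEC mice. Mib1, the ligase that ligand-bearing cells need to send a Notch signal, was higher by 1.54 ± 0.18 (limma adjusted p = 3.5e-06). In RbpjiΔEC mice the corresponding differences were 1.71 for Aph1b, 0.40 for Adam10 and 1.42 for Mib1, all called.

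Co-activators and co-repressors of RBPJ were called in both directions. Of 7 co-activators 1 was higher and 2 lower in control mice, and 1 and 4 in RbpjiΔEC mice. At its highest-mean probe set Maml1, a Mastermind protein, gave 0.01 in control mice (limma adjusted p = 0.969) and -0.06 in RbpjiΔEC mice. In control mice that probe set passed under median centring, at 0.46 (limma adjusted p = 0.0335). Other Maml1 probe sets gave 0.24 and 0.19 in control mice and 0.55 and 0.49 in RbpjiΔEC mice. Of 15 co-repressors 3 were higher and 5 lower in control mice, and 1 and 8 in RbpjiΔEC mice. Ctbp2 was higher by 2.16 ± 0.15 (limma adjusted p = 5.7e-09) and Sin3a lower, at -1.15 ± 0.18 (limma adjusted p = 9e-05). Other Sin3a probe sets gave smaller differences of -0.69 and -0.19 in control mice. Of 4 glycosylation genes 1 was called, Mfng (manic fringe, an enzyme of the same kind as Lfng) which was lower at -1.01 in control mice. In RbpjiΔEC mice 1 was higher and 1, again Mfng (-1.03), lower.

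Among 15 further target genes, 1 was higher and 4 lower in control mice, and 2 were higher and 7 lower in RbpjiΔEC mice. Cr2, the complement receptor of mature B cells and a Notch2 target there, was lowest, at -2.72 ± 0.23 in control mice (limma adjusted p = 6e-08) and -2.94 in RbpjiΔEC mice. Cr2 is also on the list of B cell markers. The interleukin-2 receptor gene Il2ra was called lower, with CCR2+ readings of 6.28 to 6.47 that lay at or below the trp control band, so no size is given. Myc, a growth regulator, stood at -1.66 and -1.98. Cdkn1a, which encodes the cell cycle inhibitor p21, was higher by 2.25 ± 0.15 (limma adjusted p = 4.6e-09) and by 2.40 in RbpjiΔEC mice. All of these were called in both genotypes.

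Among the Hes and Hey genes, Hes6 (named after its values were seen) was lower, at -0.55 and -0.77 (limma adjusted p = 0.00513 and 0.000369). A second Hes6 probe set gave -0.19 and -0.49. Hes2, Hes3 and Hes7 were not called in either genotype. At its highest-mean probe set Hes5 gave -0.05 in control mice and -0.28 in RbpjiΔEC mice (limma adjusted p = 0.733 and 0.0377), and Hey1 -0.14 and 0.15, neither called. A second Hes5 probe set gave larger differences of -0.76 and -1.12. Hey2 read 5.74 to 6.48 in all arrays, at or below the top of the trp control band, and no size is given (limma adjusted p = 0.174 in control and 0.0307 in RbpjiΔEC mice). Heyl gave -0.16 and -0.24 (0.086 and 0.0122), and its control difference passed under median centring (-0.30, limma adjusted p = 0.0385). Other Heyl probe sets gave 0.09 and -0.05 in control mice and 0.06 and 0.08 in RbpjiΔEC mice. Of the 6 other receptors and ligands, 2 were lower in control mice and none passed in RbpjiΔEC mice. Notch3 stood at -0.43 and -0.32 (limma adjusted p = 0.0123 and 0.0573), Jag2 at -0.29 and -0.02 (0.0383 and 0.887), and Dll4, an endothelial ligand, at 0.09 and 0.11. A second probe set gave -0.17 and -0.25 for Notch3, -0.03 and -0.07 for Jag2, and -0.004 and 0.13 for Dll4. The RbpjiΔEC difference of Notch3 passed without CCR2+ Control replicate 4, CCR2- Control replicate 2 or 4, or CCR2- RbpjiΔEC replicate 1 (limma adjusted p = 0.0389 to 0.0484). The Jag2 call was lost without CCR2+ Control replicate 1, 2 or 4 or CCR2- Control replicate 1 or 3 (limma adjusted p = 0.0561 to 0.124). It was also lost under median centring (-0.17, limma adjusted p = 0.275), with trend and robust variance (0.0669), with array weights (0.0537) and with the arrays of that genotype alone (0.0849). The Hes5 call was lost without CCR2+ RbpjiΔEC replicate 1 or 3 or CCR2- RbpjiΔEC replicate 1, 3 or 4 (0.0530 to 0.127), and the Hey2 call without CCR2+ RbpjiΔEC replicate 3 or CCR2- RbpjiΔEC replicate 1 or 3 (0.0796 to 0.111).

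**Figure D3:**
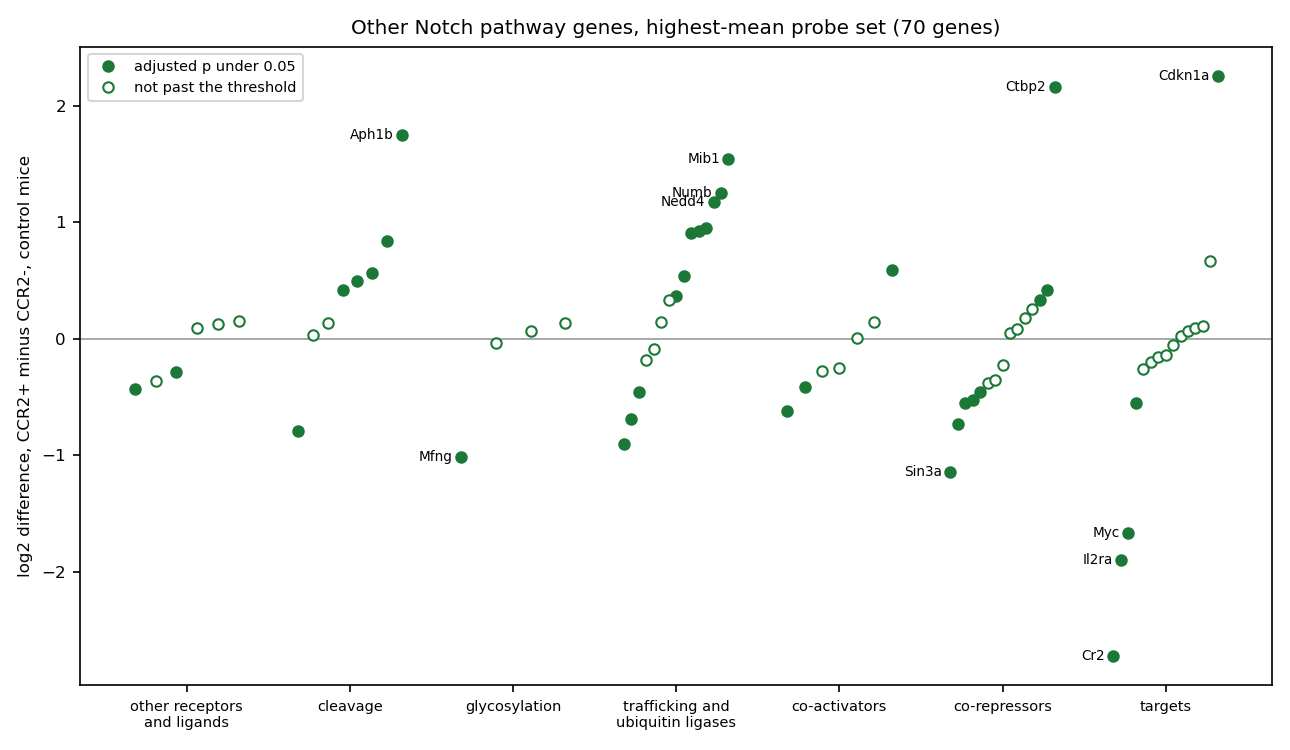
Difference between the sort labels in control mice (CCR2+ minus CCR2-, log2, vertical axis) for 70 other Notch pathway genes at their highest-mean probe set, grouped by role. Filled points passed the threshold, and called genes beyond 1 unit are named. Cdkn1a (2.25) and Cr2 (-2.72) are the extremes, both in the target class.

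The genotype comparison asks whether the Notch genes of the sorted cells differ where endothelial Rbpj was the intended target. No probe set of the 10 genes was called in either label. In the arrays labelled CCR2+, 0 of 21 passed, against 0.00222% of all probe sets, and 1 of the 21 had an unadjusted p under 0.05, against 2326 of the 45037. In the arrays labelled CCR2-, 0 of 21 passed, against 0% of all, and 0 of 21 had an unadjusted p under 0.05, against 1039. The median difference (RbpjiΔEC minus control) was 0.05 in the CCR2+ arrays and 0.01 in the CCR2- arrays, and the 21 values ran from -0.41 to 0.22 and from -0.27 to 0.23.

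**Figure D4:**
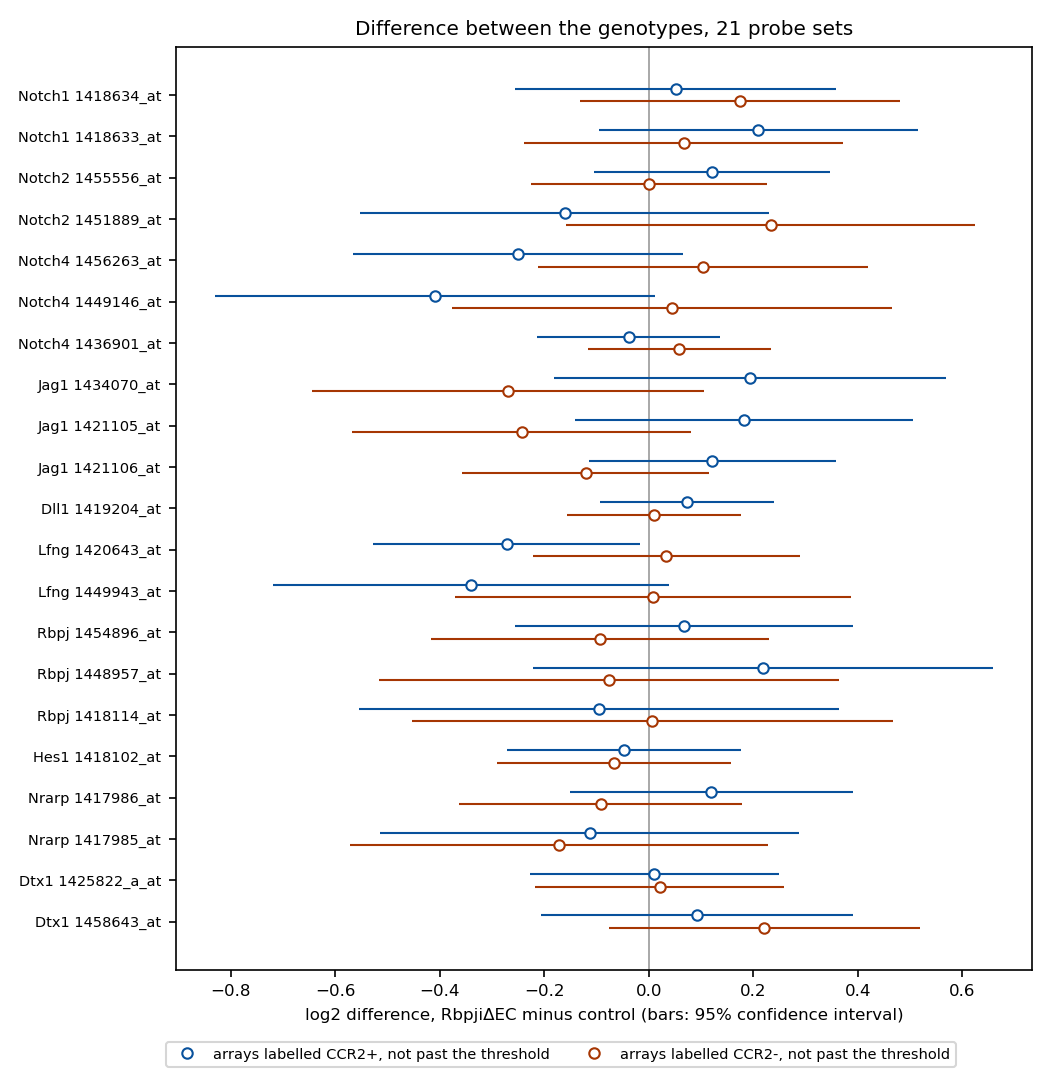
Difference between the genotypes (RbpjiΔEC minus control, log2, horizontal axis) for each of the 21 probe sets, in the arrays labelled CCR2+ and CCR2-. Bars are 95% confidence intervals from limma, and no probe set passed the threshold. The interval of Lfng 1420643_at in the CCR2+ arrays, -0.53 to -0.02, is the single one that leaves out 0.

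Rbpj itself did not differ detectably between the genotypes in either sorted population. The readings of 1454896_at are given above. At that probe set the difference was 0.07 in the CCR2+ arrays (95% interval -0.26 to 0.39) and -0.09 in the CCR2- arrays (-0.42 to 0.23). Probe set 1448957_at gave 0.22 (-0.22 to 0.66) and -0.08 (-0.52 to 0.36), and 1418114_at gave -0.10 (-0.56 to 0.36) and 0.01 (-0.45 to 0.47). These sorted cells are not endothelial by label, so the readings do not check the deletion in endothelial cells.

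Lfng 1420643_at was the probe set under 0.05 before adjustment in the arrays labelled CCR2+. It differed by -0.27 ± 0.12, and 1449943_at by -0.34 ± 0.18 (limma adjusted p = 0.943 for each). The RbpjiΔEC arrays at 1449943_at read 8.27, 8.67, 8.19 and 8.05 and the control arrays 8.80, 8.36, 8.35 and 9.02, so the groups overlapped. In the arrays labelled CCR2- the differences were 0.03 and 0.01. The 3′ minus 5′ signal of the actin control averaged 0.26 in the CCR2+ control arrays and 0.39 in the CCR2+ RbpjiΔEC arrays (exact permutation p = 0.0857, n = 4 and 4, with 0.0286 the smallest two-sided p possible). Over these 8 arrays Lfng 1449943_at fell as the actin difference rose, with r = -0.90 (exact permutation p = 0.00154) and rho = -0.90 (exact permutation p = 0.00456), adjusted over 42 relations to 0.0646 and 0.0958. The value was -0.82 within control and -0.93 within RbpjiΔEC arrays, and -0.88 over 6 arrays without the 2 farthest from the median. In the 8 arrays labelled CCR2- the relation was -0.13 for 1449943_at and 0.13 for 1420643_at, against -0.90 and -0.83 in those labelled CCR2+. Among the other relations with the actin difference, Jag1 1421106_at in the arrays labelled CCR2- gave r = 0.80 and rho = 0.93 (exact permutation p = 0.0147 and 0.00223, adjusted p = 0.192 and 0.0937). None of the 42 relations passed after adjustment. The part of RNA quality in the Lfng values was not tested.

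**Figure D5:**
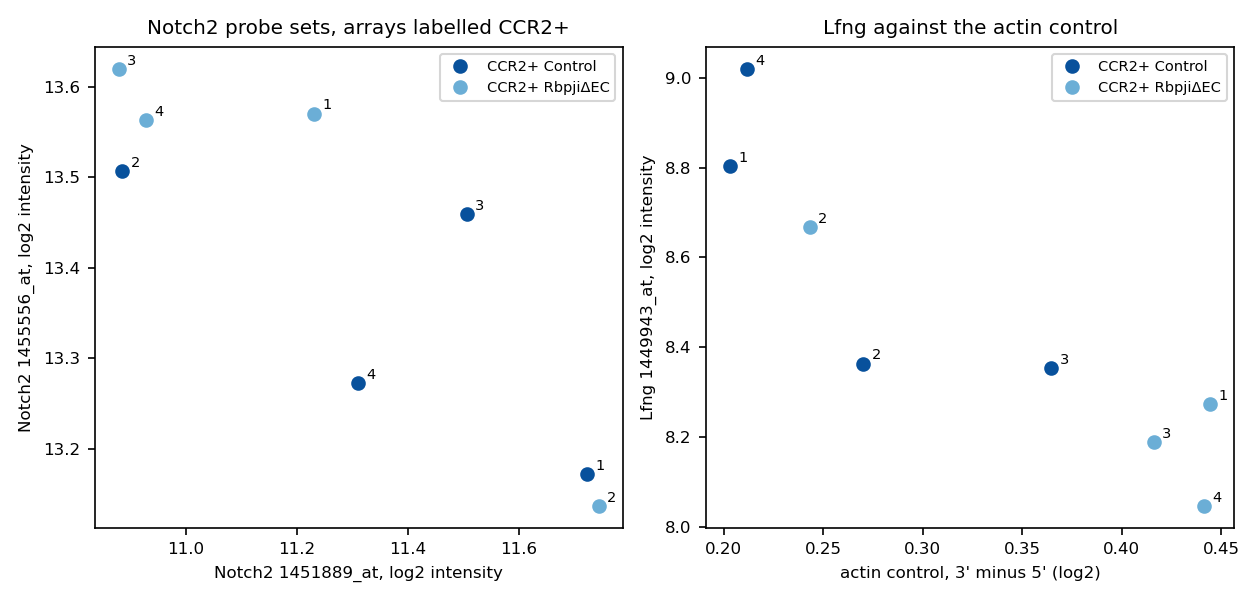
Left, the 2 Notch2 probe sets against each other (log2 intensity), and right, Lfng 1449943_at against the 3′ minus 5′ difference of the actin control (log2), in the 8 arrays labelled CCR2+, numbered by replicate. Both relations run downward, with r = -0.85 on the left and -0.90 on the right.

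The remaining genes gave intervals around 0 in the genotype comparison. Notch1 1418634_at gave 0.05 (95% interval -0.26 to 0.36) in the CCR2+ and 0.17 (-0.13 to 0.48) in the CCR2- arrays. For Jag1 1434070_at the values were 0.19 (-0.18 to 0.57) and -0.27 (-0.64 to 0.11), and for Hes1 -0.05 (-0.27 to 0.18) and -0.07 (-0.29 to 0.16). Dtx1 1425822_a_at gave 0.01 (-0.23 to 0.25) and 0.02 (-0.22 to 0.26). For Notch2 1455556_at the values were 0.12 (-0.11 to 0.35) and -7.4e-05 (-0.23 to 0.23). Dll1 gave 0.07 (-0.09 to 0.24) and 0.01 (-0.16 to 0.18), and Nrarp 1417986_at 0.12 (-0.15 to 0.39) and -0.09 (-0.36 to 0.18). Notch4 1449146_at, the most negative of the 21 in the CCR2+ arrays, gave -0.41 (-0.83 to 0.01), and 0.04 (-0.38 to 0.47) in the CCR2- arrays. At Notch4 1456263_at the CCR2+ control arrays lay between 8.07 and 8.11 and the CCR2+ RbpjiΔEC arrays between 7.66 and 8.05, without overlap, yet the difference of -0.25 ± 0.15 did not pass (limma adjusted p = 0.943). Of the 70 other pathway genes, 0 were called by limma in either label, and 0 and 1 had an unadjusted p under 0.05 in the CCR2+ and CCR2- arrays.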

How the data were processed

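RNA of 16 samples labelled as sorted TAMs was hybridised to Affymetrix mouse arrays. Of 45101 probe sets, the authors deposited linear intensity values; the sources used here do not give how these were summarised or normalized, and precision is limited by how many arrays there are. Values were taken to log2, quantile normalized over the 16 arrays and tested with limma 3.58.1 (R 4.3.3). The fit had 1 mean per group and Benjamini-Hochberg adjustment over all 45037 probe sets outside the 64 array controls, with a threshold of 0.05. Symbols came from the platform annotation (34945 probe sets with 1 symbol, 932 with several, 9160 with none). Errors of differences are limma SEs. Single values had exact permutation tests. Members, gene lists and tests were chosen with earlier results of these data known. All member probe sets are reported, as are the 4 largest called differences of other pathway genes in each direction and a fixed set of Hes, Hey, receptor and ligand genes. Numb and Nedd4, named in a figure, were chosen after their values were seen. Alternatives were median centring, a filter on dim probe sets, 1 probe set per gene, moderated variance with trend, array weights, an offset, blocks, normalization or fits within label or genotype, and leaving out arrays. The method was tested on simulated data. Promoters are from RefSeq (GRCm38.p6).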

Additional observations from a re-analysis of the deposited data

Results flagged for a closer look

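Of 84 groups of 4 arrays (21 probe sets in 4 groups), 2 held an array far from the other 3, and chance gives about 5% of groups. Notch2 1455556_at read 13.14 in CCR2+ RbpjiΔEC 2, against 13.56 to 13.62 in the other arrays of that group. Dtx1 1425822_a_at read 6.74 in CCR2+ Control 2, against 7.02 to 7.04 in the others.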

How the results depend on the processing

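No called difference of the 21 probe sets changed sign under the 26 settings of each label comparison. Jag1, Notch1, Dtx1 and the Rbpj probe sets 1454896_at and 1418114_at were called in both genotypes in every setting run. The calls that moved were those of Notch2, Lfng 1449943_at in RbpjiΔEC mice, Notch4, Nrarp 1417985_at and Rbpj 1448957_at. Under median centring Notch2 1455556_at in control mice rose from 0.23 to 0.69 (limma adjusted p = 0.00203) and Rbpj 1448957_at from 0.40 to 0.80 (0.00484), Notch2 1451889_at from 0.51 to 1.00, Rbpj 1454896_at from 0.92 to 1.38 and Notch2 1455556_at in RbpjiΔEC mice from 0.35 to 0.56, and Sin3a moved from -1.15 to -0.66, while 8 other pathway genes were lower in control and 14 in RbpjiΔEC mice. With 1 probe set per gene, 5 of 10 genes were called in each label comparison, of 7422 and 7105 among 18193 genes. In the CCR2+ genotype comparison 1 probe set of all was called. That count became 0 with median centring, 1 probe set per gene, normalization within label or the arrays of the label alone, 3 with array weights, 2 without CCR2- Control replicates 1 and 3 (chosen after seeing the data), and 1 to 4 when single arrays were left out (above 1 without CCR2+ Control 2 or 3, CCR2+ RbpjiΔEC 1 or 2, or CCR2- Control 1). The CCR2- count of 0 became 1 with array weights and without those 2 replicates, and 0 to 2 when single arrays were left out (above 0 without CCR2- Control 1 or 2 or CCR2- RbpjiΔEC 1 or 4). No member was called in any setting of the genotype or interaction comparisons. Why values moved was not tested. Between labels within a genotype, same-numbered arrays had deviations that correlated at -0.02 to 0.37, and between genotypes at -0.35 to 0.19. Not every pair passed 0.1, so the numbers were taken to name samples only. Such a cut on single pairs cannot exclude that same-numbered arrays of the 2 labels were paired. With the replicate block, 12 and 11 of 21 probe sets were called between the labels, Notch2 1451889_at (limma adjusted p = 0.0580) and Lfng 1449943_at (0.05002) missing the threshold. With the replicate block within genotype (chosen after seeing the data), 14 and 12 were called. Nrarp 1417985_at then passed in both genotypes (0.0255 and 0.0387) and Rbpj 1448957_at in control mice (0.0131), while Jag2 (0.0613), Hes5 (0.0647), Hey2 (0.114) and Heyl (0.0590) were lost. The calls of Notch2 1451889_at in control mice (0.0527) and Lfng 1449943_at in RbpjiΔEC mice (0.0517) were lost as well.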
